A study of Mus musculus with 4 samples.

Results

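The collagen chain genes and the genes whose products fold, modify, cut and crosslink collagen were examined in the RNA-Seq libraries of brown preadipocytes before and during adipogenesis. The list held 44 genes, 30 of them collagen chains and 14 of them enzymes, chaperones or enhancers. RefSeq transcripts were assigned to a gene by symbol or synonym, and each gene was represented by its transcript with the most reads over the 4 libraries. This gave values for 43 of the 44 genes, out of 22459 genes in all. Col12a1 was not analysed here. Apart from this choice of transcript the rule used no measured value, but the list was chosen with earlier results of these data known.

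Collagens are secreted proteins whose chains wind into a triple helix. In the endoplasmic reticulum, prolyl 4-hydroxylases stabilise the helix, lysyl hydroxylases prepare it for crosslinking and the chaperone HSP47 (Serpinh1) binds it. After secretion, procollagen C-proteinase removes the end of fibrillar procollagens and lysyl oxidases crosslink the fibrils. Fibrillar collagens give connective tissue its strength, collagen IV forms the network of basement membranes, and collagen VI forms beaded filaments around cells. Preadipocytes are fibroblast-like cells, and mature adipocytes are surrounded by a basement membrane.

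The cells were mouse brown preadipocytes from E18.5 embryos of the C57BL/6J background, immortalized with SV40T. Mll3 was knocked out by a gene trap insertion in all cells, and both Mll4 alleles carried loxP sites. Cells infected with adenovirus expressing GFP (Ad-GFP, labelled WT, genotype MLL3-/-) were compared with cells infected with adenovirus expressing Cre (Ad-Cre, labelled MLL4 KO, genotype MLL3-/-;MLL4-/-). They are called control cells and Mll4-deleted cells from here on. MLL3 and MLL4 are histone H3K4 methyltransferases that act on enhancers. Both kinds of cell were sampled 2 days after confluence (day 0) and at day 2 of adipogenesis, after induction with insulin, T3, indomethacin, dexamethasone and IBMX. No library lacked the Mll3 knockout, so the control cells were not wild-type. How many embryos or clones the line came from is not given in the sources used here.

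Each condition had 1 library, so no test between conditions was possible and no p-value is given. The libraries held between 17198448 and 22986362 mapped reads. At that depth, 3 reads on 1 kb of exon equal 0.131 to 0.174 RPKM, which is the read count scaled by exon length and by mapped reads. Summed transcript counts were 99.0%, 96.1%, 99.4% and 87.8% of mapped reads in control day 0, control day 2, Mll4-deleted day 0 and Mll4-deleted day 2 cells. The whole Mll4 transcript (Kmt2d) had 18.5, 18.7, 16.3 and 15.6 RPKM in the same order, and the Mll3 transcript (Kmt2c) had 1.80, 3.17, 1.41 and 1.49 RPKM. These counts cover whole transcripts and check nothing about the Mll4 deletion or the Mll3 knockout. Of 8 adipocyte markers, 6 were expressed, with a summed RPKM of 30.4 and 1999 at day 0 and day 2 in control cells and of 15.7 and 490 in Mll4-deleted cells. The brown fat markers Cidea and Ucp1 had at most 1 read in any library. Myogenic and endothelial markers (5 and 4 genes) and the 3 matched macrophage and leukocyte markers summed to at most 0.240 RPKM in any library.

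A gene was called expressed where its RPKM was above 1 in control cells at day 0 or day 2, and a ratio was called past the cutoff where it exceeded 2.5-fold. Of the 43 genes, 36 were expressed, 22 of them chains and 14 of them enzymes, chaperones or enhancers. The brackets below hold exact binomial 95% intervals of the log2 ratio of reads, and cover counting error only. They do not cover the spread between cultures, which 1 library per condition cannot show. In bulk RNA, fewer cells of one kind and less RNA per cell cannot be told apart.

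The bases just before the start site are shown for the fibrillar collagen genes that were past the cutoff in any comparison and had an entry in the RefSeq promoter table, and for Col15a1, which was added after its values were seen because its ratio of day 2 to day 0 in control cells was the highest of the list. Col1a2 (chr6:4505368-4505617, plus strand), Col11a2 (chr17:34038888-34039137, plus strand), Col27a1 (chr4:63215162-63215411, plus strand), Col5a3 (chr9:20815068-20815317, minus strand) and Col15a1 (chr4:47207762-47208011, plus strand) are each given as the 250 bases upstream of the RefSeq start site on GRCm38.p6, 5′ to 3′ on the gene's own strand. Capitals mark CCAAT or TATAAA on either strand, the sequence of the CCAAT box and the core of the TATA box.
Col1a2: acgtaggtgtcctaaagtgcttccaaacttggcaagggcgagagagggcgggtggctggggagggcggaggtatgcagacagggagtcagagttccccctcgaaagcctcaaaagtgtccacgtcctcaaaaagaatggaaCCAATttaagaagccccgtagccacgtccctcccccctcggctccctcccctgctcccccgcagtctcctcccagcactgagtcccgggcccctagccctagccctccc
Col11a2: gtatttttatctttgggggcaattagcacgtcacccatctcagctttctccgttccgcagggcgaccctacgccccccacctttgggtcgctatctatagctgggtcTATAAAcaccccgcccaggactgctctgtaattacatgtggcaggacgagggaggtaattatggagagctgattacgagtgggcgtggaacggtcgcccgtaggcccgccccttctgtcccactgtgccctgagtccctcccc
Col27a1: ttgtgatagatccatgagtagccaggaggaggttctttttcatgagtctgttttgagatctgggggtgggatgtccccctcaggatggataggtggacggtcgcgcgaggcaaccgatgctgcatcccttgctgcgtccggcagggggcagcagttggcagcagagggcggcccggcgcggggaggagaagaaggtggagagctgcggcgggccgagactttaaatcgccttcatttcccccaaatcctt
Col5a3: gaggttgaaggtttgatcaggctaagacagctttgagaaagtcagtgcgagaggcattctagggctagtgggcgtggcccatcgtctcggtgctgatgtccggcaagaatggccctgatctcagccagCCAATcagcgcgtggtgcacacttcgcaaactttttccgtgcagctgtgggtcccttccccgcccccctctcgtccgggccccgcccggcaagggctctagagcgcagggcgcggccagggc
Col15a1: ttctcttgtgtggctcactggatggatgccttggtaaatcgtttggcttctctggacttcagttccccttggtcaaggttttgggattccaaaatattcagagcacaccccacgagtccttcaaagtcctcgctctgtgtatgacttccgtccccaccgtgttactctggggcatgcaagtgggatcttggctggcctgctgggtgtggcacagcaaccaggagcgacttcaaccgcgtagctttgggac
Counted from the start site at 0, Col1a2 held CCAAT from -109 to -105 and Col5a3 from -122 to -118. Col11a2 held TATAAA from -143 to -138. Neither Col27a1 nor Col15a1 held one of these motifs in this window. Over 35 windows of the 32 listed genes in the promoter table, CCAAT was found in 31.4%, against 33.8% of all 32851 windows. TATAAA was found in 11.4% and 12.4%, respectively. The promoter table had no entry for Col1a1, Col2a1, Col4a3, Col5a2, Col14a1, Plod2, Lox, Loxl1, Loxl2, Loxl3, Bmp1 and Col12a1.

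During adipogenesis of control cells, collagen I and most crosslinking and processing enzymes had fewer reads at day 2 than at day 0, whereas the α1 and α2 chains of collagen IV and collagens VI and XV had more, collagen VI without passing the cutoff. Of the 36 expressed genes, 16 were past the cutoff on the lower side, where 12.7% of all 11537 expressed genes were. On the higher side 4 genes were past it (Col4a1, Col4a2, Col15a1 and Col11a2), where 8.37% of all expressed genes were. The median log2 ratio was -1.05 for the collagen genes and 0.15 for all expressed genes. All 14 enzymes, chaperones and enhancers were lower at day 2, 9 of them past the cutoff.

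In Mll4-deleted cells 15 of the 36 genes were past the cutoff on the lower side at day 2 (10.0% of all expressed genes) and 2 on the higher side, Col11a2 and Col27a1 (8.67% of all). Over the 36 genes the median log2 ratio was -0.92, against -0.01 for all expressed genes. Collagen IV, which was over 4-fold higher at day 2 in control cells, was 1.22-fold higher for Col4a1 and 1.28-fold higher for Col4a2 in Mll4-deleted cells. Collagen VI was higher at day 2 in control cells and lower in Mll4-deleted cells for each of its 3 chains. The ratio of day 2 to day 0 was over 2.5-fold lower in Mll4-deleted than in control cells for 6 genes (10.9% of all 11434 expressed genes with reads in every library) and over 2.5-fold higher for 8 (11.0% of all). The former were Col4a1, Col4a2, Col4a5, Col6a3, Col15a1 and Col18a1, and the latter Col1a1, Col1a2, Col2a1, Col27a1, Col7a1, Col16a1, P4ha2 and Bmp1. These counts were not taken relative to the trend over transcript length described below. Relative to it, log2 ratios between genotypes at day 0 and day 2 were 0.89 and -0.27 for Col4a1 and 1.02 and 0.02 for Col4a2. For Col4a5 they were -0.63 and -1.24. The comparisons over time share their libraries with those between genotypes, so they are not independent of each other. Expression called through a single day was found for 5 genes: Col2a1, Col7a1, Col8a2 and P4ha3 exceeded 1 RPKM in control cells only at day 0, and Col11a2 only at day 2. A gene that passes the threshold in this way had to differ between the days.

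**Figure D1:**
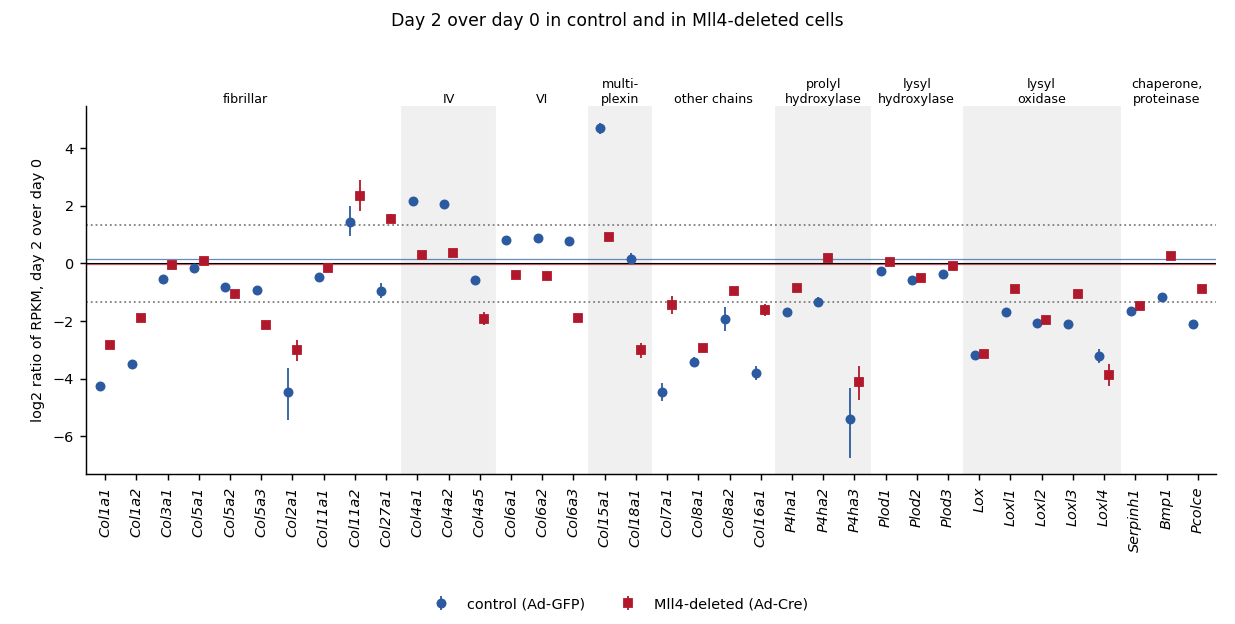
Log2 ratio of RPKM at day 2 over day 0 for the 36 expressed genes, in control (blue circles) and Mll4-deleted cells (red squares), grouped by class. Bars are exact binomial 95% intervals (counting error only), dotted lines the 2.5-fold cutoff and coloured lines the medians of all expressed genes (0.15 and -0.01). The lysyl oxidases sit below 0 in both, and the collagen IV and VI chains sit higher in control than in Mll4-deleted cells.

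Between genotypes at day 2, collagen VI, XV and XVIII chains and Col4a5 were lower in Mll4-deleted cells, and Col1a2, collagen VIII and XXVII chains and 2 of the 3 prolyl 4-hydroxylases were higher. Short of the cutoff were Col4a1, Col1a1, Col3a1 and P4ha1, with log2 ratios of -0.98, 1.11, 0.98 and 0.92. Past the cutoff, 6 genes were lower (Col4a5, Col6a1, Col6a2, Col6a3, Col15a1 and Col18a1), where 10.1% of all expressed genes were lower. On the higher side 8 genes were past it (Col1a2, Col2a1, Col27a1, Col8a1, Col8a2, P4ha2, P4ha3 and Loxl3), where 8.15% of all expressed genes were. The median log2 ratio was 0.46 for the collagen genes and -0.16 for all expressed genes, and 25 of the 36 lay above the median of all genes. With TMM scaling, the median of all genes became 0.018 and that of the collagen genes 0.64. When each ratio was taken relative to its trend over transcript length, 2 genes were past the cutoff on the lower side and 15 on the higher side. Those that became higher past the cutoff were Col1a1 (1.65), Col3a1 (1.61), Col5a2 (1.46), Col7a1 (1.61), Col16a1 (1.60), P4ha1 (1.37) and Bmp1 (1.58). With GC content in the trend as well, 6 were lower and 11 higher. Those added on the higher side were then Col3a1 (1.41), Col5a2 (1.46) and P4ha1 (1.64). The shares of 10.1% and 8.15% hold for the ratios without a trend. Shares of all expressed genes relative to either trend were not computed, so the counts relative to a trend have no baseline.

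At day 0, before induction, fewer genes stood apart. Col7a1 and Pcolce were lower in Mll4-deleted cells past the cutoff (2 genes, against 4.12% of all expressed genes), and Col2a1, Col15a1, Col18a1 and Col8a2 were higher (4 genes, against 1.27% of all). The median log2 ratio was 0.25 for the collagen genes and -0.02 for all expressed genes. Preadipocyte and fibroblast markers were in part lower at day 0, with 3 of the 6 past the cutoff on the lower side in Mll4-deleted cells (4.12% of all expressed genes). Their log2 ratios were -2.92 for Pdgfra, -3.80 for Dlk1 and -3.68 for S100a4, and the median of the 6 was -1.81. Thy1 was at -0.69, short of the cutoff, whereas Pdgfrb and Fn1 were slightly higher, at 0.45 and 0.20. The part of these markers in the collagen values at day 0 was not tested. Col3a1, Col5a1, Col5a2, Col11a1, Plod1, Plod2, Plod3 and Bmp1 were not past the cutoff in any of the 4 comparisons between libraries. Relative to the length trend, Col3a1, Col5a2 and Bmp1 were past it between genotypes at day 2, as given above. Bmp1 was past it in the ratio of the time ratios (Mll4-deleted over control), with a log2 value of 1.40.

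**Figure D2:**
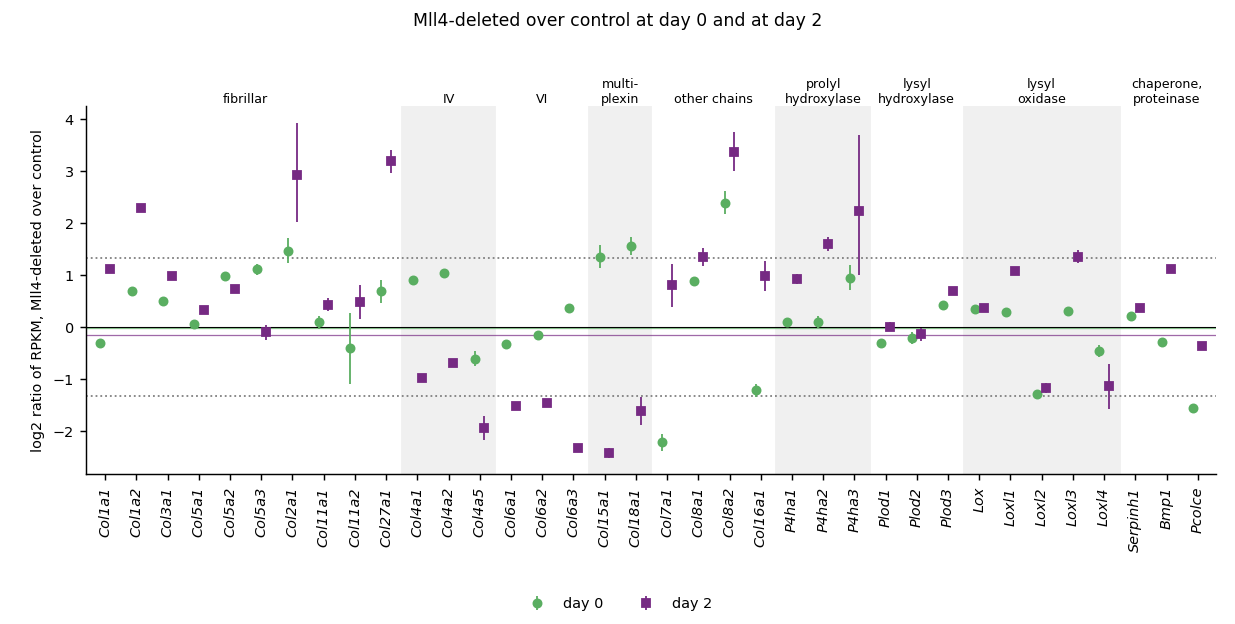
Log2 ratio of RPKM in Mll4-deleted over control cells for the 36 expressed genes, at day 0 (green circles) and day 2 (purple squares), grouped by class. Bars are exact binomial 95% intervals (counting error only), dotted lines the 2.5-fold cutoff and coloured lines the medians of all expressed genes (-0.02 and -0.16). At day 2 the chains of collagens IV, VI, XV and XVIII sit below 0, where Col4a2 was at 0.02 relative to the length trend, and 9 of the 10 fibrillar chains above it.

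The fibrillar collagens assemble into the banded fibrils of connective tissue, and their 10 genes were all expressed. Their summed RPKM was 2066 at day 0 and 501 at day 2 in control cells, and 2228 and 942 in Mll4-deleted cells. Col1a1 (chr11:94797538-94814356 on mm9) encodes the α1 chain of collagen I, the main collagen of skin and bone. It had 100715 and 7106 reads (1246 and 65.8 RPKM) at day 0 and day 2 in control cells, and 92543 reads (1010 RPKM) and 11996 reads (142 RPKM) in Mll4-deleted cells. By RPKM it ranked 3 of 22459 genes at day 0 and 630 at day 2 in control cells, and 5 and 233 in Mll4-deleted cells. The log2 ratio of day 2 to day 0 was -4.24 (-4.28 to -4.21) in control and -2.83 (-2.86 to -2.81) in Mll4-deleted cells. Both days were thus far apart in both genotypes, and the genotypes stood 2.15-fold apart at day 2, short of the cutoff. Relative to the length trend their log2 ratio at day 2 was 1.65, past the cutoff, and 0.97 with GC content in the trend as well.

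Col1a2 (chr6:4454814-4491543 on mm9) encodes the α2 chain, which pairs with α1 in the collagen I helix. Its reads were 22002 (249 RPKM) at day 0 and 2660 (22.5 RPKM) at day 2 in control cells, and 40458 (403 RPKM) and 10192 (110 RPKM) in Mll4-deleted cells. It was thus lower at day 2 in both genotypes and higher in Mll4-deleted cells on both days, with a log2 ratio of Mll4-deleted to control of 2.29 (2.23 to 2.35) at day 2. Collagen III often forms fibrils together with collagen I. Its gene Col3a1 had 27432 and 25451 reads (287 and 199 RPKM) at day 0 and day 2 in control cells, and 44313 and 39267 reads (408 and 391 RPKM) in Mll4-deleted cells. Between the days it differed by less than 1.5-fold in either genotype, and at day 2 it was 1.97-fold higher in Mll4-deleted cells.

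Collagen V starts fibrils and limits their width. Col5a1 had 22924, 27536, 27187 and 26899 reads (159, 143, 166 and 178 RPKM) in control day 0, control day 2, Mll4-deleted day 0 and Mll4-deleted day 2 cells. By RPKM it was thus nearly level, with a log2 ratio between genotypes of 0.32 at day 2. That ratio was 1.11 relative to the length trend and 0.43 with GC content as well, short of the cutoff in each case. Col5a2 lay between 56.6 RPKM (control day 2) and 196 RPKM (Mll4-deleted day 0). Col5a3, a chain of more restricted distribution, had 1253 and 891 reads (12.0 and 6.37 RPKM) in control cells and 3068 and 651 reads (25.8 and 5.93 RPKM) in Mll4-deleted cells. It was past the cutoff only over time in Mll4-deleted cells, with a log2 ratio of -2.12, or 4.36-fold lower at day 2. The genotypes were close at day 2, and the sign of their log2 ratio of -0.10 became positive with TMM scaling or the length trend.

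The other fibrillar chains were low. Col27a1 encodes a chain best known from cartilage and had 279 and 194 reads (2.13 and 1.11 RPKM) at day 0 and day 2 in control cells, and 510 reads (3.42 RPKM) and 1386 reads (10.1 RPKM) in Mll4-deleted cells. Mll4-deleted cells at day 2 were therefore the highest of the 4 libraries, 9.11-fold above control cells at day 2. Col2a1, the main collagen of cartilage, had 196 and 12 reads (2.22 and 0.102 RPKM) in control cells and 615 and 71 reads (6.14 and 0.767 RPKM) in Mll4-deleted cells. Its log2 ratio at day 2 of 2.92 (2.02 to 3.93) rested on 12 reads in control cells, and was 0.68 with a pseudocount of 1 RPKM. Of the cartilage markers, only Sox9 passed the threshold in control cells. It had 688 and 524 reads in control cells at the 2 days and 202 and 782 reads in Mll4-deleted cells, with log2 ratios between genotypes of -1.95 at day 0 and 0.93 at day 2. Comp, a cartilage matrix protein below the threshold in control cells, had 109 reads (2.49 RPKM) in Mll4-deleted cells at day 2 and at most 14 in the other 3 libraries. Of the 4 bone markers only Runx2 was expressed, with a log2 ratio between genotypes of 0.56 at day 2. The part of cartilage cells in the Col2a1 values was not tested. Col11a1, which co-assembles with collagen II, varied between 6.15 and 9.11 RPKM. Col11a2 had 42 and 153 reads (0.436 and 1.19 RPKM) in control cells and 36 and 168 reads (0.329 and 1.66 RPKM) in Mll4-deleted cells, higher at day 2 in both. In control cells its log2 ratio over time of 1.45 was short of the cutoff with TMM (1.30), with a pseudocount of 1 RPKM (0.61) and relative to the length trend (1.29).

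**Figure D3:**
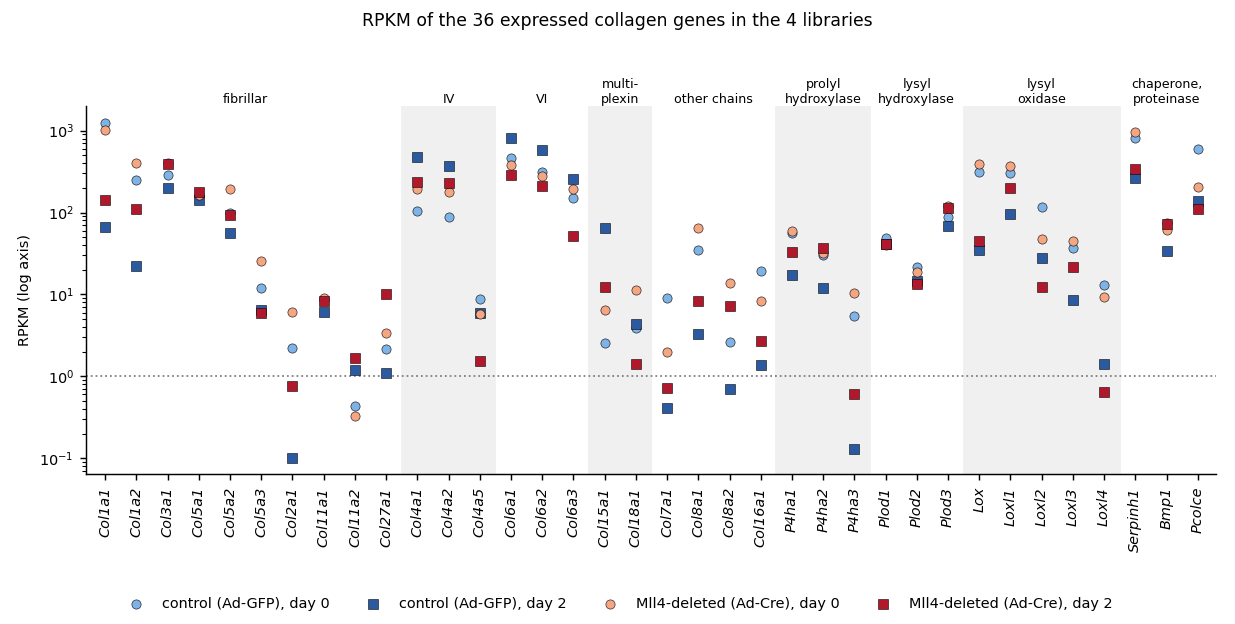
RPKM (log axis) of the 36 expressed genes in the 4 libraries, grouped by class, with day 0 as circles and day 2 as squares. The dotted line marks 1 RPKM. Col1a1 at day 0 is the highest point in both genotypes, and Col6a1 is the highest in control cells at day 2.

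Collagen IV builds the basement membrane from chains that are mostly α1 and α2. Its 6 genes lie as 3 head-to-head pairs. Col4a1 (chr8:11198423-11312826, minus strand, on mm9) and Col4a2 (chr8:11312805-11449287, plus strand) overlap by 22 bases at their starts, Col4a4 and Col4a3 on chromosome 1 are 71 bases apart, and Col4a6 and Col4a5 on the X chromosome are 1308 bases apart. Before the RefSeq start sites of Col4a1 and Col4a2, which are 21 bases apart on GRCm38.p6, CCAAT was found in both 250-base windows. Col4a1 had 11773 and 71451 reads (103 and 470 RPKM) at day 0 and day 2 in control cells, and 25076 reads (194 RPKM) and 28324 reads (237 RPKM) in Mll4-deleted cells. Its partner Col4a2 had 9660 and 54716 reads (87.4 and 370 RPKM) in control cells and 22498 and 26697 reads (179 and 230 RPKM) in Mll4-deleted cells. Both genes were thus higher in Mll4-deleted cells at day 0 and lower at day 2. The log2 ratio of Mll4-deleted to control was 0.91 at day 0 and -0.98 at day 2 for Col4a1, and 1.04 and -0.69 for Col4a2. None of these 4 values was past the cutoff, and relative to the length trend those at day 2 were -0.27 for Col4a1 and 0.02 for Col4a2.

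Of the pair on the X chromosome, only Col4a5 was expressed. Unlike Col4a1 and Col4a2, it was lower at day 2 than at day 0 in both genotypes. Between genotypes at day 2 it was lower in Mll4-deleted cells, as Col4a1 and Col4a2 were without the length trend. Col4a5, a chain of kidney and smooth muscle basement membranes, had 986 and 888 reads (8.83 and 5.95 RPKM) in control cells and 735 and 181 reads (5.80 and 1.55 RPKM) in Mll4-deleted cells. Mll4-deleted cells at day 2 stood below the other 3 libraries, with a log2 ratio to control cells of -1.94 (-2.18 to -1.71), which was -1.24 and short of the cutoff relative to the length trend. Col4a6 had 34, 25, 26 and 3 reads in control day 0, control day 2, Mll4-deleted day 0 and Mll4-deleted day 2 cells and was not expressed. Col4a3 and Col4a4, whose chains are typical of the kidney glomerulus, had at most 9 reads in any library. Where Col4a1 and Col4a2 were high, the other collagen IV genes therefore were not.

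Collagen VI surrounds cells with beaded filaments and is abundant in adipose tissue. The 3 genes had a summed RPKM of 932 and 1665 at day 0 and day 2 in control cells and of 852 and 550 in Mll4-deleted cells. Col6a1 (chr10:76171537-76188913 on mm9) had 32014 and 74938 reads (468 and 820 RPKM) in control cells and 29172 and 20493 reads (376 and 286 RPKM) in Mll4-deleted cells. At day 2 of control cells it ranked 7 of 22459 genes. Col6a2, its neighbour on the same strand, had 20108 and 50228 reads (314 and 586 RPKM) in control cells and 20600 and 14258 reads (283 and 212 RPKM) in Mll4-deleted cells. Col6a3, the long chain from which endotrophin is cleaved, had 28063 and 64673 reads (150 and 259 RPKM) in control cells and 40800 and 10149 reads (193 and 51.9 RPKM) in Mll4-deleted cells.

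All 3 collagen VI genes were therefore highest in control cells at day 2 and lowest in Mll4-deleted cells at day 2. The log2 ratio of Mll4-deleted to control at day 2 was -1.52 (-1.54 to -1.50) for Col6a1, -1.47 (-1.49 to -1.44) for Col6a2 and -2.32 (-2.35 to -2.29) for Col6a3. Relative to the length trend these were -1.07, -0.99 and -1.51, so that only Col6a3 was past the cutoff. With TMM Col6a2 was at -1.29, also short of it. With length and GC content in the trend they were -1.53, -1.42 and -1.87. Adipocyte markers moved in the same direction, all 6 expressed ones being past the cutoff on the lower side in Mll4-deleted cells at day 2 (10.1% of all expressed genes), with log2 ratios of -2.36 for Pparg, -2.28 for Adipoq and -2.25 for Lpl. The part of cell composition in the collagen values was not tested.

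The multiplexins, collagens XV and XVIII, sit at basement membranes and carry C-terminal fragments that include endostatin. Col15a1 (chr4:47221033-47326039 on mm9) had 233 and 8025 reads (2.55 and 65.6 RPKM) at day 0 and day 2 in control cells. In Mll4-deleted cells it had 673 reads (6.48 RPKM) and 1174 reads (12.2 RPKM). It thus differed 25.8-fold between the days in control cells, the largest higher ratio among the 36 genes, and 1.89-fold in Mll4-deleted cells. Mll4-deleted cells were above control cells at day 0 (log2 ratio 1.35, 1.13 to 1.57) and below them at day 2 (log2 ratio -2.42, -2.51 to -2.33).

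Col18a1 had 373 and 557 reads (3.85 and 4.31 RPKM) in control cells and 1246 and 143 reads (11.3 and 1.41 RPKM) in Mll4-deleted cells. It was level over time in control cells and 8.05-fold lower at day 2 in Mll4-deleted cells. The log2 ratio between genotypes was 1.56 at day 0 (1.39 to 1.73). At day 2 it was -1.61 (-1.89 to -1.34), and -0.97 relative to the length trend.

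The remaining chains were mostly lower at day 2 in both genotypes. Col7a1 forms the anchoring fibrils beneath epithelia and had 1443 and 88 reads (9.12 and 0.416 RPKM) in control cells and 352 and 120 reads (1.96 and 0.724 RPKM) in Mll4-deleted cells. control cells at day 0 were far above the other 3 libraries, and the genotypes differed 4.65-fold at day 0. Collagen VIII is a short-chain collagen of vessel walls and of Descemet's membrane in the eye. Col8a1 had 3073 and 387 reads (35.0 and 3.29 RPKM) in control cells and 6404 and 776 reads (64.2 and 8.42 RPKM) in Mll4-deleted cells. Col8a2 had 196 and 69 reads (2.63 and 0.693 RPKM) in control cells and 1167 and 560 reads (13.8 and 7.17 RPKM) in Mll4-deleted cells. Both collagen VIII genes were higher in Mll4-deleted cells on both days, and Col8a2 had the highest ratio between genotypes at day 2 of all 36 genes, 10.3-fold.

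Smooth muscle markers were also higher in Mll4-deleted cells on both days. Their summed RPKM over 4 genes was 1119 and 25.6 at day 0 and day 2 in control cells and 3198 and 355 in Mll4-deleted cells. At day 2 all 3 expressed markers were past the cutoff on the higher side, where 8.15% of all expressed genes were. The log2 ratio at day 2 was 3.82 for Acta2, 3.72 for Tagln and between 3.50 and 4.54 by its interval for Cnn1, which encode contractile proteins that fibroblast-like cells can also express. Their part in the collagen I and VIII values was not tested. The 6 preadipocyte and fibroblast markers summed to 1272 and 268 RPKM in control cells and to 890 and 230 RPKM in Mll4-deleted cells, and only Dlk1, an inhibitor of adipogenesis, was past the cutoff at day 2, with a log2 ratio of -1.52.

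Col16a1, a fibril-associated collagen, had 1706 and 163 reads (19.1 and 1.36 RPKM) in control cells and 833 and 253 reads (8.20 and 2.70 RPKM) in Mll4-deleted cells. It was 2.32-fold lower in Mll4-deleted cells at day 0 and 1.98-fold higher at day 2. Col9a1 and the transmembrane collagen Col13a1 had no read in any library, which allows up to 0.174 RPKM on a transcript of 1 kb in the shallowest library (3 reads). Col14a1 had at most 11 reads. Col23a1, another transmembrane collagen, had 14, 36, 10 and 156 reads in control day 0, control day 2, Mll4-deleted day 0 and Mll4-deleted day 2 cells, and reached 1 RPKM only in the last (1.53 RPKM). None of the 11 collagen genes outside the list was expressed.

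Chains that share a helix did not always keep their proportion. The RPKM ratio of Col1a1 to Col1a2 was 5.01 at day 0 and 2.92 at day 2 in control cells, and 1.29 at day 2 in Mll4-deleted cells, whose day 0 library had a counting interval of 2.47 to 2.53. No pair of the 4 values had overlapping counting intervals. The ratio of Col6a3 to Col6a1 was 0.321 and 0.316 in control cells and 0.513 and 0.182 in Mll4-deleted cells, so that it was nearly constant in control cells only. The 2 transcripts differ in length, with 10843 and 3976 exon bases, and these chain ratios were not taken relative to the length trend. At day 2 the log2 ratios between genotypes of Col6a3 and Col6a1 were -2.32 and -1.52. Relative to that trend they were closer, at -1.51 and -1.07. Smaller changes were seen for Col4a1 over Col4a2, between 1.03 and 1.27, and Col6a1 over Col6a2, between 1.33 and 1.49, in all 4 libraries. For Col4a1 over Col4a2, no pair of the 4 values had overlapping counting intervals either. Col8a1 over Col8a2 was 13.3 and 4.75 in control cells and 4.65 and 1.17 in Mll4-deleted cells. Col5a1 over Col5a2 was higher at day 2 in both genotypes, at 1.59 and 2.52 in control cells and 0.844 and 1.88 in Mll4-deleted cells. Across fibril types, Col3a1 over Col1a1 went from 0.230 to 3.02 in control cells and from 0.404 to 2.76 in Mll4-deleted cells.

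**Figure D4:**
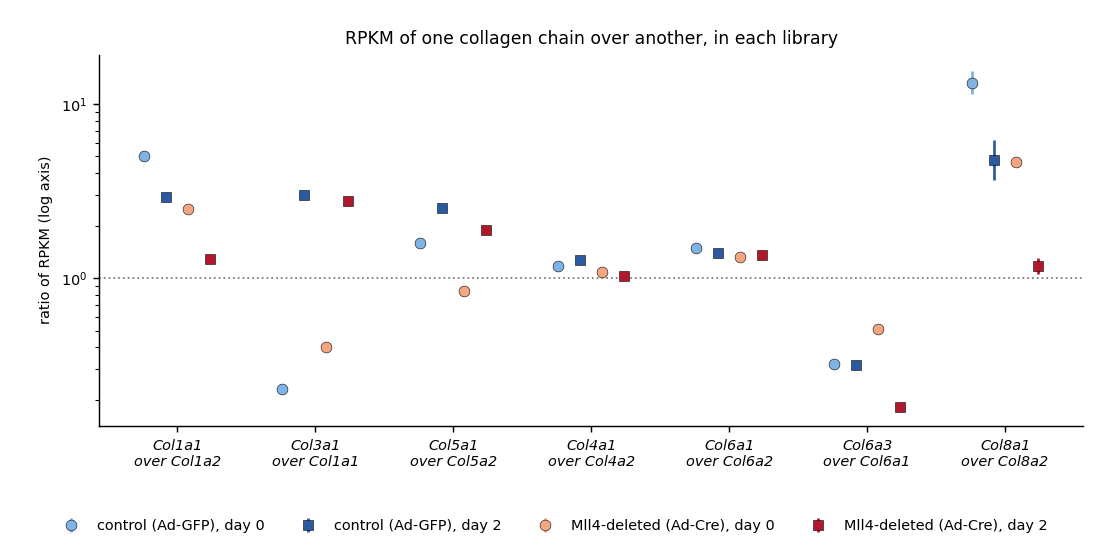
Ratio of the RPKM of one collagen chain to another (log axis) in each library, with exact binomial 95% intervals (counting error only, mostly smaller than the symbols). The dotted line marks a ratio of 1. Col4a1 over Col4a2 and Col6a1 over Col6a2 stay near one level in the 4 libraries, while Col1a1 over Col1a2 runs from 5.01 to 1.29.

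Prolyl 4-hydroxylases hydroxylate proline in the chains, and their 3 catalytic subunits were higher in Mll4-deleted than in control cells at day 2. P4ha1 had 3869 and 1606 reads (55.6 and 17.3 RPKM) in control cells and 4685 and 2392 reads (59.4 and 32.8 RPKM) in Mll4-deleted cells. P4ha2 had 1175 and 631 reads (29.9 and 12.0 RPKM) in control cells and 1425 and 1500 reads (32.0 and 36.4 RPKM) in Mll4-deleted cells. P4ha2 was thus lower at day 2 in control cells alone, and its log2 ratio between genotypes at day 2 was 1.60 (1.46 to 1.74). P4ha3 had 221 and 7 reads (5.44 and 0.129 RPKM) in control cells and 486 and 26 reads (10.5 and 0.611 RPKM) in Mll4-deleted cells. Its log2 ratio between genotypes at day 2 of 2.24 (1.00 to 3.69) rested on 7 and 26 reads.

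Lysyl hydroxylases, which hydroxylate lysine before crosslinking, stayed within the cutoff in every comparison. Plod2, the enzyme of the telopeptides, had 1372 and 1244 reads (21.5 and 14.6 RPKM) in control cells and 1347 and 888 reads (18.6 and 13.3 RPKM) in Mll4-deleted cells. Plod1 lay between 39.8 and 49.1 RPKM and Plod3 between 68.8 and 119 RPKM. Of the exon bases of Plod3, 11.9% also lie in exons of other genes, Znhit1 among them, and without strand the reads cannot be told apart.

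Lysyl oxidases crosslink collagen and elastin outside the cell. All 5 genes were past the cutoff on the lower side at day 2 in control cells (12.7% of all expressed genes). Their summed RPKM was 784 at day 0 and 168 at day 2. In Mll4-deleted cells it was 872 and 280, and 3 of the 5 were past the cutoff on the lower side (10.0% of all expressed genes). Lox had 19445 and 2852 reads (314 and 34.4 RPKM) in control cells and 27867 and 2897 reads (396 and 44.6 RPKM) in Mll4-deleted cells. The 2 genotypes were close, with log2 ratios of day 2 to day 0 of -3.19 (-3.25 to -3.13) and -3.15 (-3.21 to -3.10). Between genotypes at day 2 the log2 ratio of Lox was 0.37. It was 0.82 relative to the length trend and 1.07 with GC content as well, so this closeness depended on the processing. Loxl1, needed for elastic fibres, had 17455 and 7354 reads (304 and 95.8 RPKM) in control cells and 24294 and 12111 reads (373 and 201 RPKM) in Mll4-deleted cells.

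Loxl2, which crosslinks collagen IV, had 10393 and 3294 reads (117 and 27.7 RPKM) in control cells and 4842 and 1145 reads (47.9 and 12.3 RPKM) in Mll4-deleted cells. It was lower in Mll4-deleted cells on both days, 2.44-fold at day 0 and 2.26-fold at day 2, just short of the cutoff. The log2 ratio at day 2 was -1.17, which was -0.56 relative to the length trend and -0.62 with GC content as well. Loxl3 had 2540 and 792 reads (36.5 and 8.51 RPKM) in control cells and 3581 and 1584 reads (45.3 and 21.7 RPKM) in Mll4-deleted cells, and 12.8% of its exon bases lie in exons of Htra2. Loxl4 had 1211 and 176 reads (13.0 and 1.41 RPKM) in control cells and 997 and 63 reads (9.40 and 0.643 RPKM) in Mll4-deleted cells. The family thus shared its direction over time but not between genotypes, where at day 2 Lox, Loxl1 and Loxl3 were higher and Loxl2 and Loxl4 lower in Mll4-deleted cells. Only Loxl3 was past the cutoff there, with a log2 ratio of 1.35, and it was short of it with a pseudocount of 1 RPKM (1.25). Loxl4 was at -1.13, and at -0.50 relative to the length trend.

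Serpinh1 (chr7:106493885-106501740 on mm9), the collagen chaperone HSP47, had 33907 and 14499 reads (821 and 263 RPKM) in control cells and 44516 and 14598 reads (951 and 337 RPKM) in Mll4-deleted cells. It was about equally lower at day 2 in both, 3.13-fold and 2.82-fold. Pcolce, which enhances procollagen C-proteinase, had 15847 and 4969 reads (599 and 140 RPKM) in control cells and 6132 and 3035 reads (204 and 109 RPKM) in Mll4-deleted cells. The genotypes differed 2.93-fold at day 0 and 1.28-fold at day 2. Bmp1, the C-proteinase itself, lay between 33.9 RPKM (control day 2) and 75.5 RPKM (control day 0), counted on a RefSeq transcript that is listed as non-coding.

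Other genes of collagen folding, modification and export were in part higher in Mll4-deleted cells. Of 20 such genes outside the list 19 were matched and 16 expressed, and at day 2 4 of the 16 were past the cutoff on the higher side in Mll4-deleted cells (8.15% of all expressed genes) and 0 on the lower side (10.1% of all), with a median log2 ratio of 0.48. Among them, the transcription factor Creb3l1, an activator of secretory and collagen genes, had a log2 ratio of 2.16 (1.92 to 2.40), the prolyl 3-hydroxylase P3h3 of 1.57 and P3h2 of 1.34. The fourth, the proteinase enhancer Pcolce2, had a log2 ratio of 3.54 (2.49 to 4.81) that rested on 8 reads in control and 73 in Mll4-deleted cells. Over time in control cells 7 of the 16 were past the cutoff on the lower side (12.7% of all expressed genes). Of the 7 listed collagen receptors 6 were matched and 5 expressed, and none of the 5 was past the cutoff between genotypes at day 2. The 3 with at least 100 reads in 1 of the day 2 libraries, Ddr2, Itgb1 and Ddr1, had log2 ratios of -0.63, -0.26 and -0.20. With 13 and 25 reads at day 2, the integrin Itga11 was at 1.29 (0.27 to 2.38), and Itga1, with 53 and 47 reads, was at 0.18. At day 0 only the integrin Itga1 was higher in Mll4-deleted cells past the cutoff, with a log2 ratio of 2.17, a gene named after its values were seen.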

How the data were processed

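RNA-Seq of brown preadipocytes was analysed from 4 libraries, 1 for each of infection with Ad-GFP (control cells) or Ad-Cre (Mll4-deleted cells) at both days. The authors aligned the reads to mm9 and deposited, for each of 29082 RefSeq transcripts, the read count on its exons as a whole number without normalization. The authors also deposited RPKM, the count divided by exon length and mapped reads, and the mapped totals were recovered from count and RPKM. The submitters' processing notes name bedtools 2.16 and SICER 1.1, without roles. How reads with several matches and overlapping exons were counted is not given in the sources used here. Of 43 genes, 8 had any 50-base window matching elsewhere in mm9 with at most 2 mismatches (blastn 2.17.0), and at most 4.09% of windows for any gene (Loxl2).

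Symbols were found for 97.8% of transcripts in the RefSeq table of GRCm38.p6, used for names and promoter sequences. Coordinates came from GENCODE vM1 on mm9. Ratios of RPKM, the threshold of 1 RPKM and the 2.5-fold cutoff follow the study's methods. No test was run, and intervals are exact (Clopper-Pearson, scipy 1.17.1). TMM factors came from edgeR 4.0.16 on the counts. Code was tested on simulated data. The members, gene lists and markers were chosen with earlier results of these data known. Values in every library are given for expressed genes past the cutoff in any comparison and for Col3a1, Col5a1 and Plod2. From the other lists come up to 3 expressed genes with the largest absolute log2 ratio between genotypes at day 2 and at least 100 reads in 1 of the 2 libraries. Genes outside these rules were named after their values were seen. Alternatives were TMM, other expression filters and cutoffs, a pseudocount, the interval bound, the mean over transcripts, and a trend over transcript length. The trend over length and GC content was added after seeing the data. The ChIP-Seq and myogenesis samples were not used here. Promoters that lie in the first exon of a neighbour were not printed.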

Additional observations from a re-analysis of the deposited data

Results flagged for a closer look

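In all, 7 collagen genes had ratios of opposite direction in matched comparisons, each at least 1.5-fold with and without TMM scaling. How many of all expressed genes had such ratios was not counted, so 7 cannot be read as many or few. With 1 library per condition the differences between the ratios were not tested. Over time, Col27a1 had a log2 ratio (day 2 over day 0) of -0.94 in control and 1.56 in Mll4-deleted cells, and Col6a3 had 0.79 and -1.89. Between genotypes, 3 basement membrane genes were higher in Mll4-deleted cells at day 0 and lower at day 2, with log2 ratios of 0.91 and -0.98 for Col4a1, 1.35 and -2.42 for Col15a1 and 1.56 and -1.61 for Col18a1. Relative to the length trend, Col4a1 was at -0.27 at day 2. The other two were lower at day 0 and higher at day 2, with log2 ratios of -2.22 and 0.80 for Col7a1 and of -1.22 and 0.98 for Col16a1. Col7a1 was expressed only through control cells at day 0, and its ratio at day 2 rested on 88 and 120 reads and was 0.28 with a pseudocount of 1 RPKM.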

How the results depend on the processing

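No paired analysis was possible because each condition had 1 library. No median changed sign and no count of genes went to 0 under the alternatives. For Mll4-deleted over control at day 2, the median log2 ratio of the collagen genes (0.46) was 0.64 with TMM, 0.36 with a pseudocount of 1 RPKM, 1.12 relative to the length trend and 0.60 relative to the length and GC trend. The count of lower genes (6) was 2 with a 4-fold cutoff and 2 relative to the length trend. The count of higher genes (8) was 5 with a 4-fold cutoff, 4 with the pseudocount, 5 where the interval had to pass the cutoff and 15 relative to the length trend. At day 0 the count of lower genes (2) was 4 with a 2-fold and 1 with a 4-fold cutoff, and the count of higher genes (4) was 1 with a 4-fold cutoff, 2 with the pseudocount and 2 by the interval. For day 2 over day 0 in control cells, the median (-1.05) was -1.20 with TMM, -0.94 with genes above 1 RPKM in any library, -0.86 without a filter, -0.96 with the pseudocount and -1.20 relative to the length trend. In Mll4-deleted cells the count of lower genes (15) was 8 with a 4-fold cutoff, the count of higher genes (2) was 4 without a filter, 1 with a 4-fold cutoff and 1 with the pseudocount, and the median (-0.92) was -0.71 relative to the length trend. Stricter cutoffs and filters change counts by construction, and the cause of the change with transcript length was not tested. Shares of all expressed genes past the cutoff were not computed under the alternatives. Genes with few reads, such as P4ha3 and Col2a1 at day 2, have wide counting intervals, and no interval here covers the spread between cultures.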
